A study of Mus musculus with 25 samples.

Results

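The 41 genes described here act in DNA replication and in mitosis, and were taken by symbol from the 22985 gene symbols kept in these libraries. The choice was a list of names, made with earlier results of these data known. Of these, 22 genes belong to replication (Mcm2 to Mcm7, Mcm10, Cdc6, Cdt1, Gins1, Gins2, Pcna, Pola1, Pole, Prim1, Rrm1, Rrm2, Tyms, Tk1, Uhrf1, E2f1 and E2f2) and 19 to mitosis (Mki67, Top2a, Ccna2, Ccnb1, Ccnb2, Cdk1, Aurka, Aurkb, Plk1, Bub1, Bub1b, Birc5, Cdca5, Cdca8, Cenpe, Cenpf, Kif11, Kif20a and Stmn1). All 41 passed the filter on low values. Expression was measured by RNA-seq in T cells from spleen and lymph node of C57BL/6 mice, as FPKM, a level scaled to transcript length and library size. Regulatory T cells (Treg) restrain other T cells and need the transcription factor Foxp3, while Tconv are the conventional T cells. Rela encodes p65 and Rel encodes c-Rel, a pair of NF-kB subunits, and DKO stands for loss of both.

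Without stimulation there were 4 WT Treg, 3 p65KO Treg, 2 c-RelKO Treg, 2 DKO Treg and 2 WT Tconv libraries. Stimulation was 3 h with antibodies to CD3 and CD28 at 2 µg/ml, IL-2 being present, and gave 2 WT Treg, 2 DKO Treg and 2 WT Tconv libraries, with a single p65KO Treg and a single c-RelKO Treg library. TAT-Cre, a cell-permeable recombinase, was used in a further 4 stimulated libraries: WT Tconv and WT Treg as controls, and Treg under the labels FoxP3 del and NFkB del. Alleles, the Cre driver of the knockouts, age and animals per library are not stated in the labels. Separate animals are not named for replicates either, so p-values measure the spread between these libraries, which may be technical. Library numbers in the labels fall into consecutive runs, called runs 1 to 4 here, with the TAT-Cre set after them. Run 1 holds WT Treg 1 and p65KO Treg 1, run 2 holds WT Treg 2 and p65KO Treg 2, and runs 3 and 4 hold the rest, so a knockout library can be set beside the WT library of its own run. The labels do not say what a run stands for.

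Before a cell divides, the MCM helicase is loaded on origins by Cdc6 and Cdt1, polymerases and the sliding clamp Pcna copy the DNA, and Rrm1, Rrm2, Tyms and Tk1 supply the nucleotides. These genes are transcribed mainly around the G1 to S transition under E2F factors. Genes of mitosis (cyclin B and its kinase Cdk1, the Aurora and Polo kinases, checkpoint, kinetochore and kinesin proteins) peak later, in G2 and M, and many of their promoters carry a short element called CHR, bound by the DREAM and MuvB complexes. Most T cells of a resting spleen are not dividing, and Treg are known to hold a larger cycling share than Tconv. In bulk RNA, more cells in cycle and more RNA of these genes per cell cannot be told apart.

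The 2 groups of genes differed in how often their promoter windows held certain short words. The part of these words in the results below was not tested. Promoter windows from RefSeq (GRCm38.p6, 250 bases before to 50 after the annotated start) were found for 33 members, 18 of replication and 15 of mitosis. At least 1 of the E2F words TTTGGCGC, TTTCCCGC and TTTGGCGG, on either strand, stood in 8 of 18 replication promoters and in 0 of 15 mitosis promoters, against 2.39% of 27025 genes with a promoter window. The CHR words TTTGAA or TTCGAA stood in 3 of 18 replication and 12 of 15 mitosis promoters, against 21.7%. The CCAAT word, which overlaps none of these, stood in 13 of 18 and 13 of 15, against 41.1%. The words were chosen with results of these data known, and a match is a description, not a site of binding. E2F matches of 5 genes follow, 5′ to 3′ on the gene's strand, with the match in capitals.
Mcm3, chr1:20820275-20820304, minus strand: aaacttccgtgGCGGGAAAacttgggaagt
Mcm5, chr8:75109349-75109378, plus strand: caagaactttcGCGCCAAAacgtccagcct
Mcm6, chr1:128359734-128359763, minus strand: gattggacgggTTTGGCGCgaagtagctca
Cdc6, chr11:98908002-98908031, plus strand: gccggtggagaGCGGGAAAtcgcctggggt
Pola1, chrX:93632275-93632304, minus strand: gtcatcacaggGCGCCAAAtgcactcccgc
CHR matches follow for the cyclin B kinase Cdk1, cyclin B2, the Polo and Aurora A kinases, topoisomerase II alpha (Top2a) and the Ki-67 antigen (Mki67), again in capitals.
Cdk1, chr10:69352910-69352939, minus strand: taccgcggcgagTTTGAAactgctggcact
Ccnb2, chr9:70421533-70421562, minus strand: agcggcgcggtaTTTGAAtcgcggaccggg
Plk1, chr7:122159453-122159482, plus strand: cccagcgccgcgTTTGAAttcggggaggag
Aurka, chr2:172370521-172370550, minus strand: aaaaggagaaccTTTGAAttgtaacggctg
Top2a, chr11:99024195-99024224, minus strand: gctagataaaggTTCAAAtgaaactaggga
Mki67, chr7:135716460-135716489, minus strand: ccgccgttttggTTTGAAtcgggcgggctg
Where a window held more than 1 match of a kind, as in Cdk1 and Mcm3, only the match nearest the start is shown. The CHR match shown began 15 bases before the start in Cdk1 and 30 bases after it in Plk1. A kappaB word, the kind of site that p65 and c-Rel bind, was searched in 2 forms of 10 letters. The first stood in 1 member, the survivin gene Birc5, and the second in 0, against 0.174% and 0.13% of all promoters, which says only that these letters are not in the other windows.

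Some libraries went against their labels, or stood apart, and bear on results below. Egr1, an immediate early gene, was higher in the stimulated library of each pair of one run for WT Tconv (17.8 to 714 and 15.8 to 574 FPKM), WT Treg (41.4 to 128 and 28.9 to 116), DKO Treg (16 to 280 and 8.58 to 194) and c-RelKO Treg (61.7 to 149). In the p65KO pair it was the reverse: 178 FPKM in p65KO Treg 3, labelled unstimulated, and 29.5 in the library labelled p65KO Treg stim. Egr2 (94.7 and 33.5 FPKM) and Nr4a1 (800 and 524 FPKM) ran the same way. c-RelKO Treg 2 had a summed level of 9 erythroid markers of 20715 FPKM, where the median over all libraries was 17.1, and the highest summed levels of B cell (246 FPKM) and myeloid markers (1802 FPKM). Most counts of calls that rest on these 3 libraries are given with and without them, while counts of overlap and values by run include them. The library labelled FoxP3 del had more Foxp3 than its control, 266 against 86.7 FPKM, and is named by its label throughout. The library labelled NFkB del was low in Foxp3 as well as in Rel, and is also named by its label only. Rel was 1.76 to 2.23 FPKM in all c-RelKO and DKO libraries, while Rela was 58 to 79.8 FPKM in the unstimulated p65KO libraries, 76.1 and 56.3 in DKO Treg, 107 and 99 in stimulated DKO Treg and 64.9 to 130 in WT Treg. The Rela levels of p65KO and DKO Treg thus overlap those of WT Treg, and where its deleted part lies is not stated in the labels, so the gene-level FPKM does not check the loss of p65. Foxp3 was 129 to 351 FPKM in WT Treg, 0.542 and 0.927 in WT Tconv, and 8.01 and 21.2 in DKO Treg. Confidence bounds imply depths between 15.4 and 52.8 M fragments, and the least covered member, the GINS subunit Gins1, rested on 8.79 implied fragments in its lowest library.

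Among the unstimulated groups WT Tconv had the lowest and DKO Treg the highest levels of both groups of genes. The mean log2(FPKM + 1) of the 22 replication genes was 3.10 and 3.24 in WT Tconv, 3.41 to 4.22 in WT Treg and 5.60 and 6.08 in DKO Treg. For the 19 mitosis genes it was 1.59 and 2.14 in WT Tconv, 2.12 to 3.77 in WT Treg and 5.80 and 6.49 in DKO Treg. c-RelKO Treg (4.54 and 4.32 for replication, 3.63 and 3.44 for mitosis) and p65KO Treg (4.45 to 4.95 and 3.90 to 4.90) lay between WT and DKO, except that c-RelKO Treg fell within the WT range for the mitosis genes. Outside the TAT-Cre set, DKO Treg 2 was the highest library for 38 of 41 members, and the first stimulated WT Tconv library the lowest for 23.

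**Figure D1:**
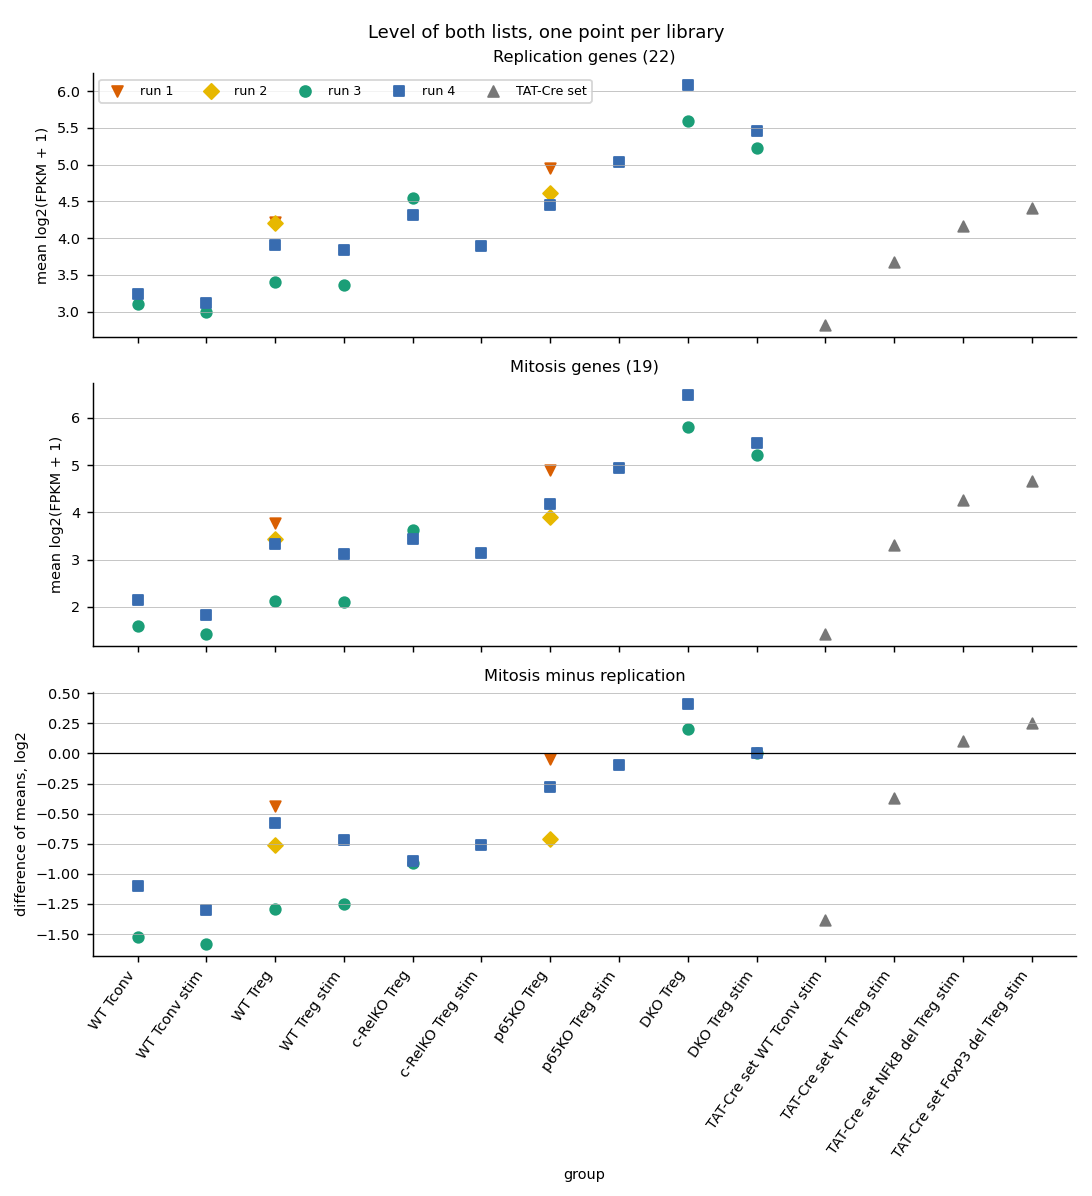
Mean log2(FPKM + 1) of the 22 replication genes (top), of the 19 mitosis genes (middle) and their difference (bottom) by group, 1 point per library, with colour and shape giving the run. Both lists are highest in the 2 unstimulated DKO Treg libraries, and of the libraries outside the TAT-Cre set these lie highest in the bottom panel (0.20 and 0.41), with stimulated DKO Treg at 0.00; the labels of p65KO Treg in run 4 and p65KO Treg stim are in doubt.

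Unstimulated DKO Treg had far more RNA of nearly all members than WT Treg. limma called 39 of 41 members higher in DKO Treg and 0 lower, where 19.4% of the 11532 genes tested were called higher. The calls took in 20 of 22 replication genes (median log2 difference 2.02) and 19 of 19 mitosis genes (median 3.00), and the median over all genes tested was 0.06. The libraries of the 2 groups did not overlap for 40 members, against 25.7% of all genes with DKO Treg the higher. A fit with the run as a block called 40 members, where 37.1% of all genes were called higher. The within-run medians over the members were 2.92 in run 3 and 2.81 in run 4.

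The mitosis genes led. Plk1 (mm9 chr7:129302950-129313389), the Polo kinase that drives mitotic entry, was 9.62, 5.28, 2.43 and 7.85 FPKM in WT Treg 1 to 4 and 72.5 and 101 FPKM in DKO Treg. Its log2 difference was 3.69 ± 0.47 (SE; limma adjusted p = 7.03e-05; n = 2 and 4). Ccnb1, cyclin B1 (chr13:101548693-101556441), was 6.3, 4.23, 0.901 and 3.16 FPKM in WT Treg and 45.3 and 44.9 in DKO Treg, and rose by 3.47 ± 0.49 (limma adjusted p = 0.000144). The lowest DKO library stood far above the highest WT library for both genes. Ccna2, cyclin A2, rose by 3.46 ± 0.45, with 5 to 18.6 FPKM in WT Treg and 113 and 179 in DKO Treg. Its entry shares 863 bases with that of Exosc9, so reads there may have been divided between them. Cdk1 (chr10:68799382-68815660), the kinase that cyclin B activates, was 7.51, 6.62, 1.97 and 5.64 FPKM in WT Treg and 40.2 and 70.1 in DKO Treg, a rise of 3.18 ± 0.41. Mki67 (chr7:142881470-142908062), whose protein coats mitotic chromosomes and marks cycling cells, was 35.4, 22.9, 6.63 and 20.5 FPKM in WT Treg and 86.7 and 163 in DKO Treg, a rise of 2.63 ± 0.56 (limma adjusted p = 0.00263). WT Treg 3 was the lowest WT library for each of these genes. Aurora A (Aurka) rose by 3.29 ± 0.34, Aurora B (Aurkb) by 3.21 ± 0.47, and its partners in the chromosomal passenger complex, survivin (Birc5) and borealin (Cdca8), by 3.08 ± 0.55 and 2.79 ± 0.41. The spindle checkpoint kinases Bub1 and Bub1b rose by 2.67 ± 0.44 and 2.58 ± 0.39, the kinetochore proteins Cenpe and Cenpf by 2.49 ± 0.46 and 2.68 ± 0.46, and the spindle kinesins Kif11 and Kif20a by 2.81 ± 0.37 and 3.00 ± 0.45.

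Replication genes rose by less and over a wider range. The largest rise was that of Rrm2 (chr12:25393118-25399011), the regulated subunit of ribonucleotide reductase. It was 36.5, 28.1, 9.31 and 19.7 FPKM in WT Treg and 167 and 279 in DKO Treg, and rose by 3.30 ± 0.43 (limma adjusted p = 8.27e-05). Its partner Rrm1 rose by 2.32 ± 0.17. Mcm5 (chr8:77633426-77652338) was 33.8, 31.7, 19.3 and 34.6 FPKM in WT Treg and 122 and 172 in DKO Treg, a rise of 2.28 ± 0.26. The other helicase subunits rose by 1.24 ± 0.14 (Mcm4) to 1.91 ± 0.20 (Mcm3), and Mcm10, which joins the helicase to polymerase alpha, by 2.54 ± 0.34. Of the licensing pair that loads the helicase, Cdc6 rose by 2.10 ± 0.31 and Cdt1 was not called. Cdt1 (chr8:125091914-125097030) was 22.4, 42.9, 51.5 and 42.9 FPKM in WT Treg and 45 and 52.4 in DKO Treg, a difference of 0.34 ± 0.26 (limma adjusted p = 0.35), and its groups overlapped. Pcna, the sliding clamp, was 123, 271, 223 and 169 FPKM in WT Treg and 347 and 327 in DKO Treg. The groups did not overlap, and the difference of 0.84 ± 0.31 missed the threshold (limma adjusted p = 0.054). With the run as a block it was called, at 0.88 ± 0.15 (limma adjusted p = 0.000274). The entries of Mcm7, Tk1, Gins2 and Kif20a also overlap other genes, and their values are uncertain to that extent.

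**Figure D2:**
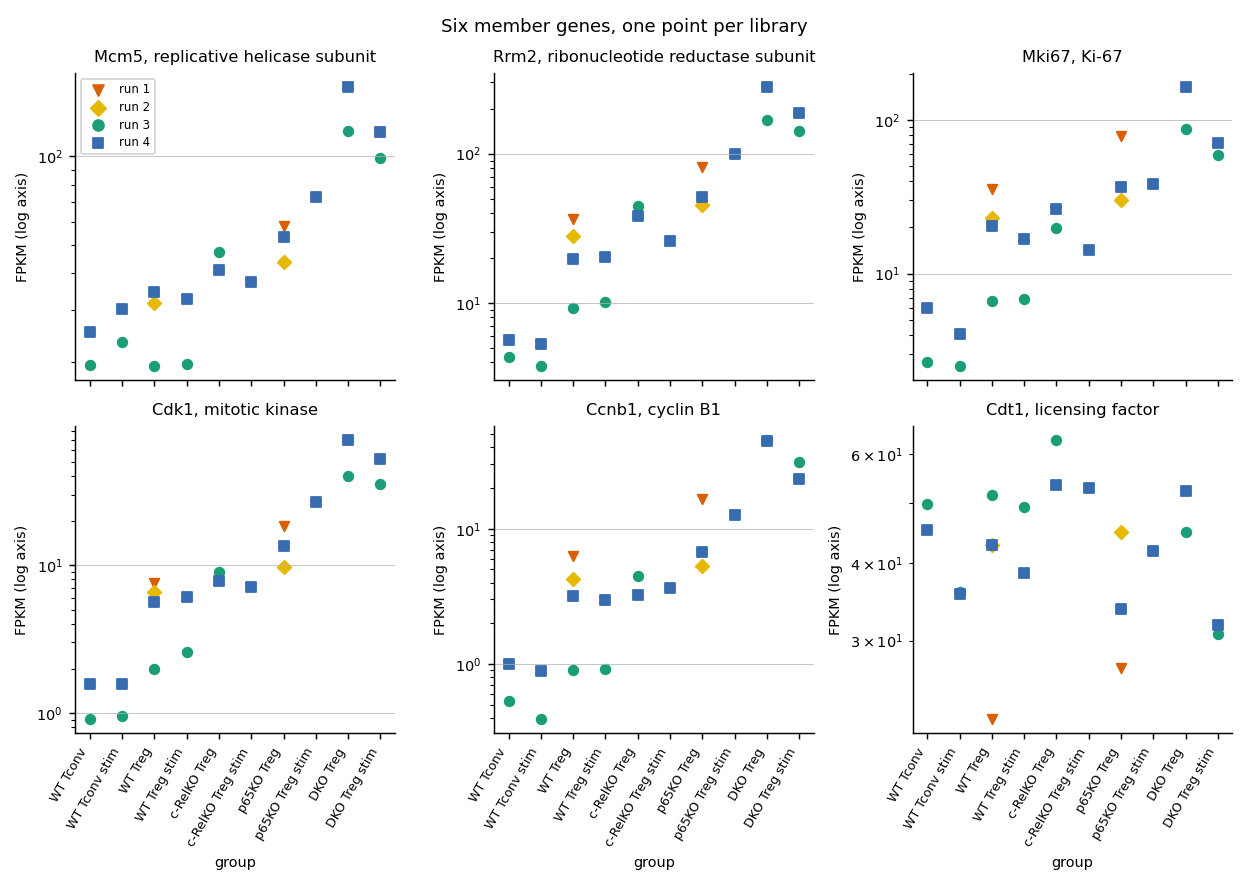
FPKM (log axis) of 6 members by group, 1 point per library, with colour and shape giving the run. Both DKO Treg libraries lie above all WT Treg libraries for Mcm5, Rrm2, Mki67, Cdk1 and Ccnb1, while Cdt1 overlaps (45 and 52.4 against 22.4 to 51.5 FPKM).

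Genes of the same processes outside the list were taken as further lists, also chosen with earlier results of these data known. Most of the further replication and mitosis genes moved as the members did. Of all 11532 genes tested, 2239 were called higher and 1564 lower. Of 40 further replication genes tested, 36 were called higher in DKO Treg and 0 lower (median 1.39), among them the flap endonuclease Fen1 (1.71 ± 0.17), the licensing inhibitor geminin (Gmnn, 2.01 ± 0.23), the DNA ligase Lig1 (2.17 ± 0.25) and the helicase cofactor Cdc45 (2.59 ± 0.30). Of 42 further mitosis genes, 41 were higher and 1 was lower, the condensin subunit Smc4 at -1.25 ± 0.26 (median 2.58). The transcription factors of the late programme, Mybl2 (2.32 ± 0.24) and Foxm1 (2.16 ± 0.25), were among those higher. Of 17 G1 cyclin, kinase and E2F genes, 10 were higher, such as E2f7 (2.37 ± 0.22), E2f8 (2.53 ± 0.33), both repressors of E2F targets, and Cdk6 (1.67 ± 0.27). The 2 lower ones, named after their values were seen, were E2f5 (-1.11 ± 0.20) and Myc (-1.84 ± 0.48). Of 20 cell cycle inhibitors and quiescence genes, 7 were higher and 6 lower. Among the higher were the inhibitors of the cyclin D kinases Cdkn2a (3.54 ± 0.25), Cdkn2b (2.25 ± 0.20) and Cdkn2c (2.27 ± 0.28), and among the lower was Foxp1 (-1.61 ± 0.16), a forkhead factor known for holding T cells at rest. Cdkn2a was 0.629 to 1.32 FPKM in WT Treg and 15.7 and 27.1 in DKO Treg.

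Other genes moved with the same libraries. The summed level of 9 NK and CD8 T cell markers was 132 and 235 FPKM in DKO Treg and 12.6 to 57.4 in WT Treg, led by Nkg7 at 84.3 and 149 FPKM in DKO Treg. For 13 myeloid markers it was 166 and 187 FPKM in DKO Treg, of which the single gene Cst3 gave 128 and 104. Cst3 gave 50.3 and 57.4 FPKM in WT Treg of runs 3 and 4, and was the highest of these markers in most libraries. The summed level was 57.2 and 85.6 FPKM in WT Treg of runs 3 and 4, and 57.2 to 207 in all WT Treg libraries. The summed level of 7 Treg markers was 1457 and 1473 FPKM in DKO Treg, below the 3144 and 3260 of WT Treg in runs 3 and 4. Over all WT Treg libraries the range was 1047 to 3260, with the lowest in run 1. The summed level of 10 T cell markers was 2437 and 2646 FPKM in DKO Treg, within the WT range of 2146 to 3696. The part of these markers and of the low Foxp3 in the members' rise was not tested.

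In p65KO Treg the members were higher than in WT Treg, by less than in DKO Treg and without passing the test of the whole table. limma called 0 of 41 members (0.0434% of all genes were called in either direction), with 38 members at an unadjusted p under 0.05 (9.8% of all genes). The median difference was 0.95 over the members, 0.78 for replication, 1.11 for mitosis and 0.10 over all genes. Taking the run as a block, limma called 33 members, all higher, where 7.08% of all genes were called higher. Set against the WT library of the same run, 39 of 41 members were higher in each of 3 runs, against 32.5% of all genes, with medians of 0.97, 0.45 and 0.78 in runs 1, 2 and 4. Without p65KO Treg 3 and the other 2 libraries in doubt, limma called 0 members, as it did of all genes (36 members at an unadjusted p under 0.05, against 11.5% of all genes; median 1.08). With the run as a block as well it called 2 (0.875% of all genes were called higher).

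Rrm1, which had the smallest p, was 27.6, 31.1, 20.2 and 24.4 FPKM in WT Treg and 49.3, 41.1 and 42.6 in p65KO Treg, a difference of 0.77 ± 0.15 (limma adjusted p = 0.105). The p65KO libraries all lay above the WT libraries. Rrm2 was 81.8, 45.4 and 51.2 FPKM in p65KO Treg, again above the 9.31 to 36.5 of WT Treg, and differed by 1.41 ± 0.38 (limma adjusted p = 0.233). The next smallest p were those of Mcm6 (0.52 ± 0.11; limma adjusted p = 0.131) and Mcm10 (1.11 ± 0.30). Mcm5 was 58.1, 43.6 and 53 FPKM and differed by 0.79 ± 0.23. Mki67 was 78.1, 30 and 36.4 FPKM and overlapped WT Treg, where WT Treg 1 had 35.4 (difference 1.21 ± 0.49). Cdk1 was 18.5, 9.66 and 13.4 FPKM, above every WT library, and differed by 1.27 ± 0.36, and Ccnb1 was 16.5, 5.33 and 6.72 FPKM, overlapping WT, and differed by 1.19 ± 0.43. Cdt1 was the one member below 0 (-0.14 ± 0.23). Libraries did not overlap for 25 of 41 members, against 4.49% of all genes with p65KO the higher. Myeloid markers summed to 165 to 833 FPKM in p65KO Treg and 57.2 to 207 in WT Treg. Those of NK and CD8 T cells summed to 301, 86.1 and 38 FPKM in p65KO Treg against 57.4, 44.8 and 18.6 in the WT Treg library of the same run, with Nkg7 at 268 FPKM in p65KO Treg 1. The part of either in these values was not tested.

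In c-RelKO Treg the replication genes were higher than in WT Treg in both runs and the mitosis genes in run 3, with 1 library per run. limma called 2 of 41 members, Rrm1 (0.76 ± 0.17; adjusted p = 0.0135) and Mcm3 (0.69 ± 0.20; adjusted p = 0.0425), both higher, where 1.62% of all genes were called higher. The median difference was 0.51 for replication, 0.30 for mitosis and -0.13 over all genes. Rrm1 was 49.1 and 39.3 FPKM in c-RelKO Treg, above all 4 WT libraries. Cdc6 came next (0.95 ± 0.31; limma adjusted p = 0.0683). Mcm3 was 67.5 and 56.4 FPKM there and 39.9, 44, 28.3 and 41.7 in WT Treg, again with no overlap. When the run was a block, limma called 27 members, 19 of replication and 8 of mitosis, where 15.8% of all genes were called higher.

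By run, the median of the mitosis genes was 1.52 in run 3 and 0.02 in run 4, and that of the replication genes 1.23 and 0.37. In run 4, 21 of 22 replication genes and 10 of 19 mitosis genes were higher. Mki67 was 19.7 FPKM in c-RelKO Treg 1 against 6.63 in WT Treg 3 of its run, and 26.3 against 20.5 in run 4. Ccnb1 was 4.45 against 0.901 FPKM in run 3 and 3.22 against 3.16 in run 4. Both c-RelKO libraries thus lay within the WT range for these genes (differences 0.29 ± 0.56 and 0.20 ± 0.49), and WT Treg 3, the run 3 control, is the lowest WT library for them. Rrm2 was 44.4 and 38.4 FPKM, above WT Treg, and differed by 0.94 ± 0.43 (limma adjusted p = 0.18). Mcm5 (0.58 ± 0.26) and Cdk1 (0.64 ± 0.41) were not called, and Cenpf, Cenpe and Prim1 had differences below 0 (-0.19 ± 0.46, -0.16 ± 0.46 and -0.08 ± 0.29). Without c-RelKO Treg 2 and the other libraries in doubt, a single c-RelKO library was left, that of run 3. The median difference was then 0.66 for replication and 0.52 for mitosis genes, and -0.13 over all genes. With the run as a block as well, these medians were 1.11, 1.28 and -0.03. NK and CD8 T cell markers summed to 161 and 70.6 FPKM in c-RelKO Treg, above all WT Treg libraries (12.6 to 57.4). In c-RelKO Treg 1 myeloid markers summed to 199 FPKM, against 57.2 in WT Treg 3 of its run. The part of these markers, and of the erythroid, B cell and myeloid RNA of c-RelKO Treg 2, in the members' values was not tested.

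**Figure D3:**
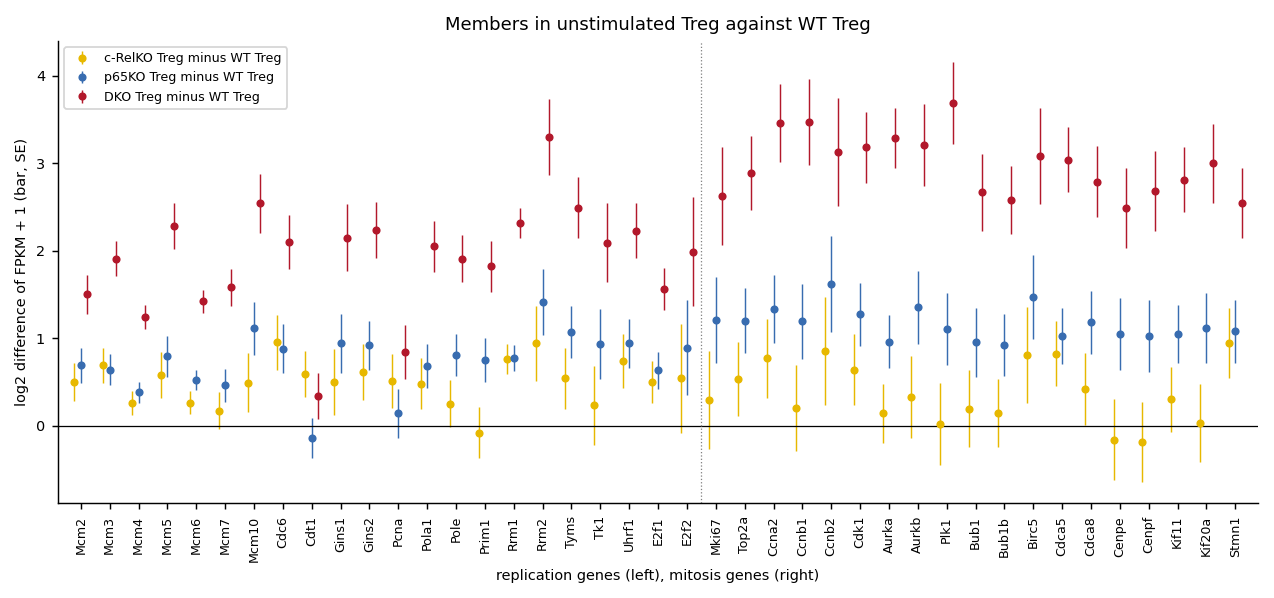
log2 difference of FPKM + 1 from WT Treg (points, with SE bars) for each member in unstimulated DKO, p65KO and c-RelKO Treg, replication genes left and mitosis genes right of the dotted line. DKO values run from 0.34 (Cdt1) to 3.69 (Plk1), p65KO values from -0.14 to 1.62 and c-RelKO values from -0.19 to 0.95.

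Set directly against the single knockouts, DKO Treg was higher. Against p65KO Treg, limma called 32 of 41 members higher and 0 lower (8.75% of all genes were called higher), with a median of 1.44 and the largest differences in Plk1 (2.60 ± 0.50), Aurka (2.34 ± 0.36), Ccnb1 (2.28 ± 0.51) and Ccna2 (2.13 ± 0.47). The other genes named throughout were Mcm5 (1.48 ± 0.27), Rrm2 (1.89 ± 0.45), Cdk1 (1.91 ± 0.44) and Mki67, which was not called (1.41 ± 0.59; limma adjusted p = 0.112). Only run 4 holds both groups, and its p65KO library is p65KO Treg 3, whose label is in doubt, so a block on the run also rests on WT libraries. With the run as a block limma called 40 members (26.4% of all genes were called higher), among them Mki67 at 2.25 ± 0.29 (adjusted p = 0.000101). Against c-RelKO Treg it called 38 higher (19.5% of all genes), with a median of 1.94 over the members and 0.25 over all genes. Median-ratio size factors of these groups differed by 0.29 on the log2 scale, and the fit does not adjust for this. The largest differences were in Plk1 (3.67 ± 0.54), Ccnb1 (3.27 ± 0.56), Aurka (3.15 ± 0.39) and Kif20a (2.96 ± 0.52), while Cdt1 was at -0.26 ± 0.31. With the block limma called 39 (42.5%). Without the 3 libraries in doubt the counts were 23 (8.49% of all genes) and 25 (8.76%). Without DKO Treg 2 they were 9 (3.11%) and 20 (5.92%), and without p65KO Treg 2 the first was 17 (5.21%). The comparisons share the DKO libraries. Without c-RelKO Treg 2, which is among the 3 in doubt, or without DKO Treg 2, that group keeps a single library, assumed to vary like the others.

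Whether the double loss departed from the sum of the single losses was tested as an interaction on the log2 scale. limma called 1 member, Aurka, which exceeded the sum by 2.19 ± 0.50 (adjusted p = 0.0406), where 1.1% of all genes were called higher. Aurka was 8.09, 5.13, 3.61 and 8.06 FPKM in WT Treg, 16, 7.8 and 15.4 in p65KO Treg, 5.88 and 7.51 in c-RelKO Treg and 56.1 and 80 in DKO Treg. Both DKO libraries stood above all others, and the c-RelKO libraries lay within the WT range. The median was 0.71 for replication and 1.46 for mitosis genes, and 0.15 over all genes, with 40 of 41 members above 0 and Cdt1 at -0.11 ± 0.38. With only p65KO Treg 2 left out limma called 0 members, with Aurka at 1.89, and with only p65KO Treg 1 left out it called 2. A fit that leaves out a c-RelKO or a DKO library holds a single library of that group, assumed to vary like the others. With all libraries and a block on the run limma called 32 members (26% of all genes were called higher). Without the 3 libraries in doubt it called 0 (0.945% of all genes), with 5 at an unadjusted p under 0.05 (17.9% of all genes), and 22 with the run as a block (23.2% called higher). It also called 0 when any one of the unstimulated DKO or c-RelKO libraries was left out.

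The balance of the groups of genes also differed between genotypes, as a description without a test. The mean of the mitosis genes lay below that of the replication genes in every WT library, by -0.44 to -1.29 on the log2 scale in WT Treg and by -1.10 and -1.52 in WT Tconv. In unstimulated DKO Treg it lay above, by 0.20 and 0.41. Against the WT Treg library of the same run the shift was 1.25 ± 0.36 in DKO Treg (SD, n = 2), and 0.99 in run 4, the smaller of the 2 values. It was 0.39, 0.05 and 0.31 in p65KO Treg (0.25 ± 0.18, n = 3) and 0.38 and -0.30 in c-RelKO Treg (0.04 ± 0.49, n = 2). The 0.31 came from p65KO Treg 3 and the -0.30 from c-RelKO Treg 2, both among the libraries in doubt. The DKO shifts were larger than all of the others, and the c-RelKO runs fell on either side of 0. The values compare means of logs of FPKM + 1, so genes of low FPKM, most of them mitotic, have their rise understated in the groups where they are low.

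WT Treg had more RNA than WT Tconv of 17 of the 41 members. These were 8 of 22 replication genes, among them Rrm1, Rrm2, Tyms and Tk1, and 9 of 19 mitosis genes. limma called 0 lower (7.03% of all genes were called higher), with a median of 1.10 over the members and 0.00 over all genes. The count was 0 without WT Tconv 1 (2.17% of all genes), 1 without WT Tconv 2 (1.96%), 6 without WT Treg 2 (5.06%), 8 without WT Treg 4 (6.35%) and 24 without WT Treg 3 (7.48%). The run as a block gave 27 higher (19.5% of all genes) and 1 lower, the helicase subunit Mcm7 (26.4%). Tk1, thymidine kinase, was 18.1, 11.8, 4.5 and 5.54 FPKM in WT Treg and 0.871 and 1.56 in WT Tconv, 2.14 ± 0.45 higher (limma adjusted p = 0.00699). Mki67 was 2.67 and 5.97 FPKM in WT Tconv, below all WT Treg libraries, and differed by 1.94 ± 0.56 (limma adjusted p = 0.0351). Rrm2 was 4.33 and 5.63 FPKM in WT Tconv and differed by 1.89 ± 0.43, again with no overlap, and Birc5 by 1.88 ± 0.55. Cdk1 differed by 1.43 ± 0.41 (limma adjusted p = 0.0365), and Ccnb1, at 0.533 and 0.999 FPKM in WT Tconv, by 1.25 ± 0.49 (not called).

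None of the 6 subunits of the MCM helicase, Mcm2 to Mcm7, was called, and whether they differ in this from the other members was not tested. Mcm5 was 19.5 and 25.2 FPKM in WT Tconv, overlapping the 19.3 to 34.6 of WT Treg, and differed by 0.38 ± 0.26. Mcm2 (0.01 ± 0.22), Mcm3 (0.28 ± 0.20) and Mcm6 (0.30 ± 0.13) were not called, and Mcm4 (-0.03 ± 0.14), Mcm7 (-0.22 ± 0.21), Cdt1 (-0.31 ± 0.26) and the microtubule regulator Stmn1 (-0.01 ± 0.40) were at or below 0. Median-ratio scaling put Mcm4 at 0.02 and Stmn1 at 0.03, and the replicate number as a block put Mcm7 at 0.03, so the direction of these 3 flips with the setting. Against the Tconv library of its run, the members' median was 0.45 in run 3 and 1.03 in run 4. Of the further lists, 10 of 42 mitosis genes were called higher, and 3 of 40 replication genes higher and 1 lower. Of 17 G1 genes, 5 were called higher in Treg and 0 lower (12.6% of all genes were called in either direction), among them Cdk6 (2.18 ± 0.27), Ccnd2 (1.53 ± 0.23) and Myc (2.29 ± 0.48). Summed markers of B cells were 5.87 to 73.5 FPKM in WT Treg and 2.78 and 3.85 in WT Tconv, and those of erythroid cells 4.32 to 633 and 0.882 and 5, and their part was not tested.

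Stimulation for 3 h raised no member past the test in WT cells. In WT Tconv limma called 1 of 41 members, Mcm7, which fell by 0.93 ± 0.25 (SE; adjusted p = 0.0257), where 5.16% of all genes were called lower. Mcm7 was 36.7 and 31.5 FPKM before and 17.2 and 17.6 after stimulation, with no overlap. Its entry also holds the microRNA genes Mir25, Mir93 and Mir106b. Pcna was 136 and 96.9 FPKM before and 223 and 166 after, higher in both runs (0.72 and 0.77), and its difference of 0.74 ± 0.36 was not called (limma adjusted p = 0.217). With the run as a block it was called (adjusted p = 0.00234), as were Mcm6, Mcm7, E2f2 and Stmn1 as falls, for 5 members in all (43.1% of all genes). Mcm5 (0.26 ± 0.30), Rrm2 (-0.12 ± 0.50), Mki67 (-0.26 ± 0.64), Cdk1 (0.02 ± 0.48) and Ccnb1 (-0.11 ± 0.56) were not called. Of 17 G1 genes, 3 rose and 1 fell, and of 20 cell cycle inhibitors and quiescence genes 0 rose and 3 fell, where 11.9% of all genes were called in either direction. Among them Ccnd2, a D-type cyclin, rose by 2.70 ± 0.27 and Myc by 3.57 ± 0.55, while the kinase inhibitor Cdkn1b fell by 1.49 ± 0.24 and the quiescence factor Klf2 by 1.61 ± 0.32.

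In WT Treg limma called 0 of 41 members after stimulation, and 0 of all 11532 genes (311, or 2.7%, at an unadjusted p under 0.05, 1 of them a member, and 0 of all genes with the run as a block). Few genes of any kind differed: 0.199% were higher and 0.13% lower by more than 2-fold in run 3, against 5.27% higher in WT Tconv of that run. The smallest p among the members were those of Mcm7 (-0.46 ± 0.21), Stmn1 (-0.82 ± 0.40), Gins1 (-0.69 ± 0.38) and E2f2 (-1.09 ± 0.62). The unstimulated group holds 2 libraries of runs 1 and 2 that have no stimulated partner. Within runs the members' medians were -0.05 and -0.15, and Mki67 was 6.63 before and 6.81 FPKM after in run 3, and 20.5 and 16.7 in run 4. The other named genes were at -0.19 ± 0.26 (Mcm5), -0.51 ± 0.43 (Rrm2), -0.73 ± 0.56 (Mki67), -0.25 ± 0.41 (Cdk1) and -0.60 ± 0.49 (Ccnb1).

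In DKO Treg all 41 members were lower after stimulation in both runs, against 60.8% of all genes, with medians of -0.45 in run 3 and -0.87 in run 4 (all genes, -0.17 and -0.21). limma called 1 member, Mcm6, which fell by 0.76 ± 0.15 (adjusted p = 0.0055), where 6.13% of all genes were called lower. Mcm6 was 184 and 220 FPKM before and 119 and 117 after, with no overlap. Cenpf was 11.8 and 22.5 FPKM before and 4.57 and 4.88 after, a difference of -1.60 ± 0.54 that was not called (limma adjusted p = 0.0782). Mcm5 (-0.41 ± 0.30), Rrm2 (-0.40 ± 0.50), Mki67 (-0.88 ± 0.64), Cdk1 (-0.31 ± 0.48) and Ccnb1 (-0.73 ± 0.56) were not called. With the run as a block limma called 17 members lower (30.8% of all genes). The libraries did not overlap for 27 members, against 44.8% of all genes with the stimulated group lower. Of the G1 genes 1 rose and 2 fell, and of the inhibitors and quiescence genes 0 rose and 2 fell, Klf2 by 2.68 ± 0.32 and Cdkn1b by 1.72 ± 0.24 (9.99% of all genes were called in either direction).

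**Figure D4:**
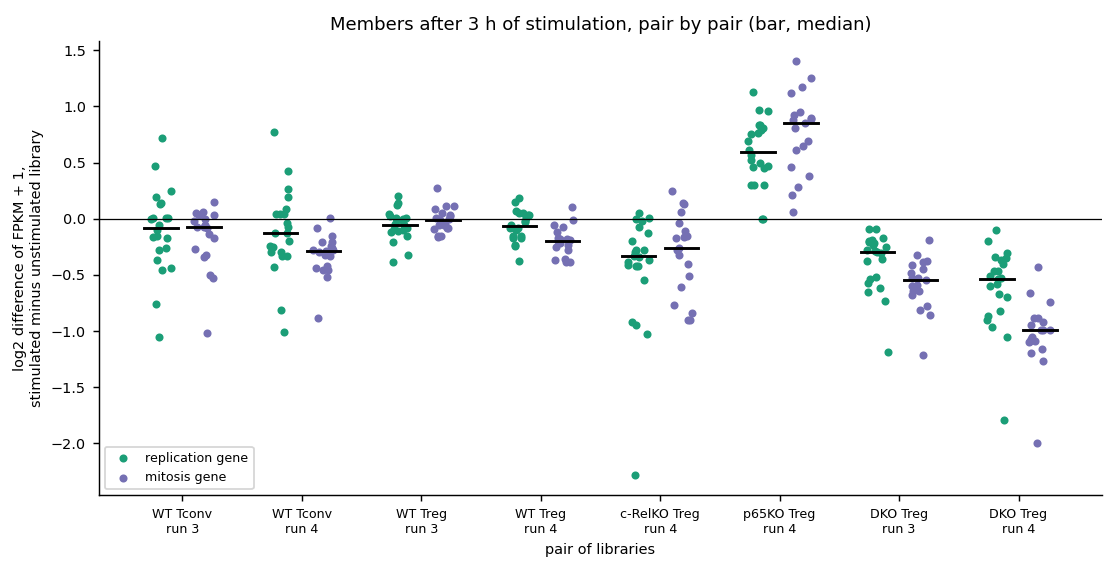
log2 difference of FPKM + 1 between the stimulated and the unstimulated library of a run, 1 point per member, replication and mitosis genes apart, with bars at the medians. All 41 members lie below 0 in both DKO pairs, and 39 of 41 above 0 in the p65KO pair (51.9% of all genes), the labels of which are in doubt.

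Tests of the difference between responses called 0 members. For DKO Treg against WT Treg limma called 0 (0.971% of all genes), with 1 member at an unadjusted p under 0.05 (10.4% of all genes). A block on the run gave 3, Mcm6 (-0.66 ± 0.14), E2f2 (-1.25 ± 0.23) and Cenpf (-1.46 ± 0.36), all with the larger fall in DKO Treg (9.44% of all genes called that way). The named genes were at -0.21 ± 0.39 (Mcm5), 0.11 ± 0.66 (Rrm2), -0.15 ± 0.85 (Mki67), -0.06 ± 0.63 (Cdk1) and -0.13 ± 0.74 (Ccnb1). For WT Tconv against WT Treg it called 0 as well (1.03% of all genes), with 0 at an unadjusted p under 0.05 (11.5%), and 1 with the run as a block, Mcm7 (7.71% of all genes were called that way). The same genes were there at 0.45 ± 0.39 (Mcm5), 0.39 ± 0.66 (Rrm2), 0.46 ± 0.85 (Mki67), 0.27 ± 0.63 (Cdk1) and 0.49 ± 0.74 (Ccnb1).

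After stimulation DKO Treg still stood above WT Treg. limma called 38 of 41 members higher and 0 lower (16.6% of all genes were called higher), with a median of 2.19 over the members and -0.00 over all genes. Rrm2 was 143 and 186 FPKM in stimulated DKO Treg and 10.2 and 20.3 in stimulated WT Treg, the largest difference (3.41 ± 0.50; limma adjusted p = 0.000199). Ccnb1 was 31.1 and 23.2 against 0.921 and 2.96 FPKM (3.34 ± 0.56), and Plk1 (3.24 ± 0.54) and Ccnb2 (3.23 ± 0.72) came next. For Rrm2 and Ccnb1, and for Cdk1 (3.12 ± 0.48), Mki67 (2.47 ± 0.64) and Mcm5 (2.06 ± 0.30), the groups did not overlap. Cdt1 was the one member lower in stimulated DKO Treg in both runs, at 30.7 and 31.8 FPKM against 49.3 and 38.6 (-0.47 ± 0.31, not called). The run as a block called it lower (31.3% of all genes) and the other 40 members higher (31.4%). Other genes moved with these libraries too. The summed level of NK and CD8 T cell markers was 192 and 349 FPKM in stimulated DKO Treg and 14 and 19.5 in stimulated WT Treg, that of myeloid markers 116 and 200 against 53.9 and 79.5, and that of erythroid markers 11.3 and 385 against 3.33 and 5.24. Of the myeloid sums, Cst3 gave 100 and 94.3 FPKM in stimulated DKO Treg and 48.8 and 53.6 in stimulated WT Treg. Foxp3 was 6.34 and 8.31 FPKM against 336 and 295. Their part in the members' difference was not tested.

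Stimulated WT Treg against stimulated WT Tconv gave 0 members called (6.64% of all genes), 19 at an unadjusted p under 0.05 (21.1% of all genes) and 26 higher with the run as a block (16.8% of all genes). The median was 0.83, with Uhrf1, which maintains DNA methylation at the fork, at 1.21 ± 0.36 and Rrm2 at 1.49 ± 0.50, and Mcm2, Mcm4, Mcm5 and Prim1 below 0 (-0.41 ± 0.26, -0.14 ± 0.16, -0.07 ± 0.30 and -0.05 ± 0.33). Median values were 1.08 for mitosis and 0.54 for replication genes. Mki67 was 6.81 and 16.7 FPKM in stimulated WT Treg and 2.5 and 4.06 in stimulated WT Tconv, with no overlap and a difference of 1.48 ± 0.64 (not called).

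The stimulated single knockouts had 1 library each, assumed to vary as the other groups do. In the library labelled p65KO Treg stim, 6 members lay past limma's threshold against stimulated WT Treg (0.65% of all genes were called higher), a count that rests on that assumption and on a label in doubt. It was 40 with the run as a block (19.8%) and 27 without WT Treg 3 (1.75%). It was 0 without WT Tconv 1 (0.0782%), and also without WT Tconv 2, either stimulated WT Tconv library or the first stimulated WT Treg library. The differences are therefore given as values: 0.99 ± 0.18 for Mcm6, 1.40 ± 0.25 for Rrm1, 2.43 ± 0.48 for Aurka, 2.53 ± 0.52 for Cdca5, 1.59 ± 0.34 for E2f1 and 2.66 ± 0.57 for Stmn1. Summed NK and CD8 T cell markers were 83.4 FPKM in that library and 14 and 19.5 in stimulated WT Treg, and myeloid markers 146 against 53.9 and 79.5. Cdk1 was 26.9 FPKM there, against 13.4 in p65KO Treg 3, 6.1 in stimulated and 5.64 in unstimulated WT Treg of the same run, and 51.9 in stimulated DKO Treg. Rrm2 was 100 FPKM, against 51.2, 20.3, 19.7 and 186 in the same libraries. That library thus held more of both than p65KO Treg 3, whichever of them was stimulated, and less than stimulated DKO Treg. In the c-RelKO Treg stim library 0 members were called by limma (0.347% of all genes), 0 at an unadjusted p under 0.05 (6.93%) and 0 with the run as a block (8.55%), and the median difference from WT Treg of its run was 0.05. The smallest p were those of Mcm2 (0.58 ± 0.31), Rrm1 (0.44 ± 0.25), Mcm6 (0.32 ± 0.18) and Mcm3 (0.49 ± 0.28). Mki67 was 14.3 FPKM there and 16.7 in WT Treg. Of the 41 members, 35 were lower than in c-RelKO Treg 2, the unstimulated library high in other cells' markers, against 48.9% of all genes.

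In the TAT-Cre set, with 1 library per group and no test, the Treg libraries labelled FoxP3 del and NFkB del had more RNA of most members than the WT Treg control. In the library labelled FoxP3 del, 40 of 41 members were higher and 21 by more than 2-fold, 18 of mitosis and 3 of replication, where 2.79% of all genes were. The medians were 1.39 for mitosis, 0.77 for replication and 0.05 for all genes. Mki67 was 18.4 FPKM in the control, 49 in the library labelled FoxP3 del and 41 in that labelled NFkB del. Ccnb1 was 3.78, 13.5 and 9.25 FPKM, and Rrm2 16.7, 40.8 and 33. In each the order was the same, with the library labelled FoxP3 del highest.

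Under the label NFkB del, 40 of 41 members were higher and 7 by more than 2-fold, 6 of mitosis and 1 of replication (1.57% of all genes), with medians of 0.97 and 0.50. Rel was 38.7 FPKM in this library against 171 in the control, and Rela 124 against 125. Cdt1 was the one member below the control in each, at 19.3 and 20.3 against 21 FPKM. In the Tconv control, 26 members were more than 2-fold lower than in the Treg control (11% of all genes), with Mki67 at 2.54 FPKM, and 3 members were higher. The summed level of erythroid markers was 1627 FPKM under the label NFkB del, 54 under FoxP3 del and 65.1 in the Treg control. That of myeloid markers was 199, 237 and 92.7 FPKM and that of B cell markers 39.2, 72 and 33.8 in the same order. Their part in these differences was not tested.

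**Figure D5:**
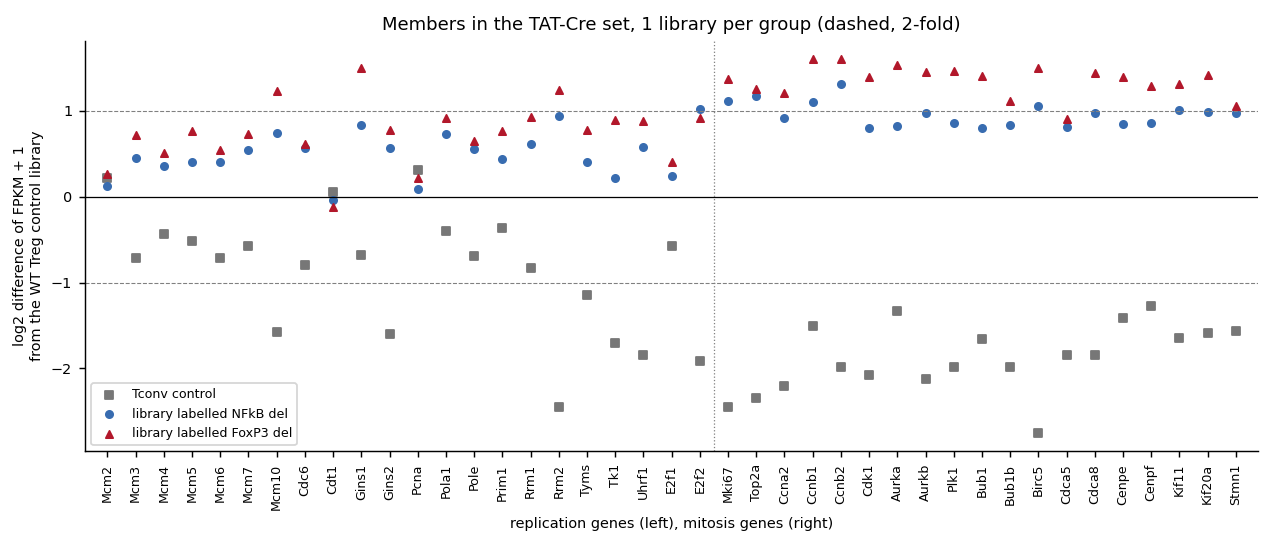
log2 difference of FPKM + 1 from the WT Treg control library of the TAT-Cre set for each member, 1 library per group, replication genes left and mitosis genes right of the dotted line, with 2-fold marked by dashed lines. Of the members past 2-fold in the library labelled FoxP3 del, 18 of 21 are mitosis genes, and 26 members lie past 2-fold lower in the Tconv control.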

How the data were processed

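RNA-seq libraries of mouse T cells were described by gene-level FPKM values, which the authors deposited with confidence bounds in 1 table per library. The tools named per the submitters' processing notes are bcl2fastq, TopHat and Cufflinks, with genome build mm9; neither labels nor headers give versions, annotation or strand. Of 23235 symbols, 250 with an entry not marked OK in some library were left out, and FPKM of repeated symbols were summed. Depth is implied by the confidence bounds.

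log2(FPKM + 1) was tested with limma 3.58.1 in R 4.3.3 (mean trend, 1 mean per group over 21 libraries, 11 residual degrees of freedom), on the 11532 genes that reached 1 FPKM in 2 or more libraries. A Benjamini-Hochberg adjusted p under 0.05 over all genes is a call. The pseudocount understates changes of low genes. The fit was tested on simulated data with independent spread in each library and no run effect. That check cannot speak to deviations shared within a run. TAT-Cre libraries were compared without a test. Alternatives were a pseudocount of 0.1, no filter, median-ratio size factors, the run or the replicate number as a block, the compared groups alone, and libraries left out. Leaving out 3 libraries in doubt was chosen after seeing the data.

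Named in each comparison are the 4 largest called rises and falls (with none called, the 4 smallest p), Mcm5, Rrm2, Mki67, Cdk1, Ccnb1, and members on the other side from most; other members may be named, and from each further list up to 4 genes. The members and lists were chosen with earlier results of these data known. Deviations from group means correlated at 0.432 on average in 51 pairs of libraries of one run (lowest 0.036). Groups came from the sample labels.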

Additional observations from a re-analysis of the deposited data

Results flagged for a closer look

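The 4 WT Treg libraries, the largest group, were checked for an outlying library member by member. For 2 of 41 members 1 library lay far from the other 3, which chance gives in about 1 in 20 single checks. The members share the same libraries, so these checks are not independent. In both it was WT Treg 3, the lowest library of its group: for Mcm5 the gap took 0.847 of the range from 4.35 to 5.15 on the log2(FPKM + 1) scale, and for Cdca8 0.873 of the range from 2.69 to 3.98. The interaction of p65 and c-Rel loss differed from 0 in limma's test for Aurka, by 2.19 on the log2 scale.

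For 9 members stimulation moved both pairs of WT Tconv libraries up and both pairs of DKO Treg libraries down. They were picked by these directions, so each difference listed is above 0 by that choice. All 41 members were lower in both DKO pairs, and the share of all genes that met the rule was not counted. The response of WT Tconv minus that of DKO Treg was 0.57 for Mcm2, 0.66 for Mcm5, 0.25 for Mcm10, 0.40 for Gins1, 0.89 for Pcna, 0.56 for Rrm1, 0.96 for Tk1, 0.96 for Uhrf1 and 0.33 for Cdk1. A limma test of this difference, added after seeing the data, called 0 members (0.598% of all genes) and 2 with the run as a block (6.85% of all genes), Pcna (adjusted p = 0.0314) and Cenpf (0.0394).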

How the results depend on the processing

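The comparison of DKO with WT Treg kept its direction and its count within 1.5 times under all alternatives run, as did that of stimulated DKO with stimulated WT Treg. Fits without c-RelKO Treg 2 hold a single c-RelKO library, assumed to vary like the others. Other counts of members called by limma moved, and the cause was not tested. With the run as a block they were 33 for p65KO, 27 for c-RelKO, 32 for the interaction, 28 for Treg against Tconv, 5, 17, 3 and 1 for stimulation of Tconv, of DKO, DKO minus WT and Tconv minus Treg, 26 for stimulated Treg against Tconv and 40 for stimulated p65KO. With that block and without the 3 libraries in doubt, chosen after seeing the data, they were 2, 32, 22, 27, 7, 26, 5, 2 and 31 in the same order without stimulated p65KO. Without those libraries and with no block they were 1 for c-RelKO, 25 for DKO against c-RelKO and 0 for the interaction. Fitting only the groups compared gave 0 for c-RelKO, 12 for DKO against p65KO, 0 for the interaction, 1 for Treg against Tconv, 5 for stimulated Tconv, 9 for stimulated Treg against Tconv and 23 for stimulated p65KO. Without run 1, or without run 1 and c-RelKO Treg 2, counts were 5 and 0 for the interaction, 5 and 5 for stimulation of DKO, 5 and 4 for stimulated Treg against Tconv and 31 and 31 for stimulated p65KO, and the second gave 1 for c-RelKO. No filter gave 1 for c-RelKO, 0 for the interaction, 5 for Treg against Tconv and 0 for stimulation of Tconv. A pseudocount of 0.1 gave 0 for the interaction and 2 each for stimulated Treg against Tconv and stimulated p65KO, and size factors gave 4 for c-RelKO, 1 and 11.

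The replicate numbers do not pair the samples: deviations of libraries that share a number but not a run correlated at -0.119 on average over 25 pairs, 2 of them over 0.1. With the replicate block, counts were 3 for the interaction, 2, 7 and 2 for stimulation of Tconv, Treg and DKO and 6 for stimulated Treg against Tconv, and 39 for DKO against WT. It also turned Mki67 (-0.05) and Ccnb1 (-0.16) in c-RelKO, Mcm4 (0.04), Mcm7 (0.03) and Stmn1 (0.48) in Treg against Tconv, and Mki67 (0.19), Cdk1 (0.13) and Ccnb1 (0.23) in the DKO minus WT response.

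Size factors turned Mcm4 (0.02) and Stmn1 (0.03) in Treg against Tconv, and Cdk1 (0.07) and Ccnb1 (0.00) in the DKO minus WT response, where a pseudocount of 0.1 gave Ccnb1 0.06 and Rrm2 fell to -0.15 without run 1, with or without c-RelKO Treg 2. The run as a block, with all libraries and then without those in doubt, gave Rrm2 -0.35 and -0.48 there. In the Tconv minus Treg response it gave Rrm2 -0.07 and -0.20, Mki67 -0.06 and -0.14, Cdk1 -0.05 and -0.16 and, without them, Ccnb1 -0.08. In stimulation of Treg it gave Cdk1 0.07 and 0.18 and, without them, Rrm2 0.08. It gave Mki67 -0.04 and -0.07 in stimulated c-RelKO and Cdt1 0.01 in stimulated p65KO. The c-RelKO shift of mitosis against replication genes was -0.01 without Top2a, Ccna2 and Cdca5.

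Leaving out 1 library at a time gave counts of 0 to 1 for p65KO, 0 to 3 for c-RelKO, 9 to 37 and 20 to 38 for DKO against p65KO and c-RelKO, 0 to 2 for the interaction, 0 to 24 for Treg against Tconv, 0 to 1 and 0 to 3 for stimulation of Tconv and DKO, 0 to 4 for stimulated Treg against Tconv and 0 to 27 for stimulated p65KO. Values that changed sign ranged in c-RelKO from -0.16 to 0.59 (Mki67) and -0.18 to 0.47 (Ccnb1), and in Treg against Tconv from -0.09 to 0.03 (Mcm4) and -0.21 to 0.31 (Stmn1). In stimulation of Tconv they ranged from -0.32 to 0.08 (Rrm2), -0.73 to 0.20 (Mki67), -0.19 to 0.23 (Cdk1) and -0.33 to 0.11 (Ccnb1), in Treg from -0.55 to 0.17 (Mcm5) and -0.74 to 0.25 (Cdk1), and in DKO from -0.70 to 0.09 (Cdk1). In the DKO minus WT response they ranged from -0.57 to 0.14 (Mcm5), -0.36 to 0.58 (Rrm2), -0.74 to 0.44 (Mki67), -0.55 to 0.44 (Cdk1) and -0.65 to 0.39 (Ccnb1). In the Tconv minus Treg response they ranged from -0.08 to 0.86 (Rrm2), -0.13 to 1.05 (Mki67), -0.23 to 0.76 (Cdk1) and -0.04 to 1.01 (Ccnb1). Stimulated Treg against Tconv gave -0.43 to 0.29 (Mcm5), stimulated p65KO -0.23 to 0.11 (Cdt1) and stimulated c-RelKO -0.21 to 0.97 (Mki67). A group left with 1 library was assumed to vary like the others.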
